A study of Mus musculus with 30 samples.

Results

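H19 and 9 other imprinted growth genes, Igf2, Cdkn1c, Meg3, Rian, Mirg, Dlk1, Peg3, Mest and Plagl1, were examined in mouse soleus, a postural calf muscle rich in slow fibres. These 10 genes are the rows, of 56980 in the count table, whose Ensembl identifiers map to those symbols. They were put together with earlier results of these data in view, and which comparison drew attention to them is not recorded. For that reason their differences between groups are a description. Calls of the members in the main model are counted beside the share of all genes called, and nothing is read from them as a test. Sex and relations between mice were assumed to have played no part in the choice, though this is not recorded either, and were tested. RNA of 30 C57BL/6J mice of both sexes, 3 to 4 months old, had been sequenced, 1 library per mouse. The HU mKO group (8 mice) lacked AMPKalpha1 and AMPKalpha2 in skeletal muscle and had 4 weeks of hindlimb unloading, in which the hindlegs bear no weight. The AMB mKO group (7 mice) had the same knockout and stayed ambulatory. The HU Ctrl group (7 mice) and the AMB Ctrl group (8 mice) carried floxed alleles of both genes with no Cre and were unloaded or ambulatory for the same time. AMPK is the kinase that responds to low cellular energy, and these 2 proteins are its catalytic subunits. Since no control carries Cre, loss of AMPK and presence of Cre cannot be told apart, and the promoter that drives Cre is not given in the labels.

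An imprinted gene is read from only the maternal or only the paternal copy, as set by DNA methylation laid down in the germ line. Paternally expressed genes such as Igf2, Dlk1, Peg3, Mest and Plagl1, and maternally expressed ones such as H19, Cdkn1c, Meg3, Rian and Mirg, are known as a network that is high in the fetus and falls after birth. In adult muscle H19 stays abundant and has been studied in satellite cells and regeneration. The deposited counts do not separate the 2 copies, so every level below is the sum of both.

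Sequences that show what these genes carry were taken from RefSeq on GRCm38.p6. The first set consists of mature microRNAs that lie inside the non-coding RNAs, or between Meg3 and Rian, because several of these RNAs are hosts of microRNAs. Capitals mark the seed, bases 2 to 8, which pairs with targets. miR-675 lies within H19 on the minus strand of chromosome 7, its 5p arm at chr7:142577112-142577133 and its 3p arm at chr7:142577078-142577099. The others lie on the plus strand of chromosome 12, miR-770-3p in Meg3 at chr12:109563744-109563765, miR-127-3p between Meg3 and Rian at chr12:109592888-109592909, miR-370-3p in Rian at chr12:109618305-109618326 and miR-410-3p in Mirg at chr12:109743764-109743784.
miR-675-5p: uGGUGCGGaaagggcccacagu
miR-675-3p: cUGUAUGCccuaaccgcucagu
miR-770-3p: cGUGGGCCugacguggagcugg
miR-127-3p: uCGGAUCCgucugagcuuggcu
miR-370-3p: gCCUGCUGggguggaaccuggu
miR-410-3p: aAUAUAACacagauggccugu
No seed was shared among the 6. The miR-410-3p seed is found in 5 mouse microRNAs of the RefSeq set, itself included, and the other 5 seeds are each found in 1. In the hairpin set used, H19, Igf2, Mest and Meg3 each hold 1 microRNA hairpin, Rian holds 3 and Mirg holds 14. In that set 54 lie between the start of Meg3 and the end of Mirg. GENCODE also places Mir1906-1, which is outside that set, within Meg3, and it had 0 counts in every library. The libraries say little about the small RNAs themselves. Of 35 microRNA rows listed for the H19-Igf2, Dlk1-Dio3 and Mest loci, 5 were at 0 in every library. The highest count in any of the other 30 was 6. Mir1188, a Rian hairpin that is not among the 35, reached 12.

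The second set consists of promoters, 250 bases before to 50 after the annotated start, for the genes whose levels are compared as a cluster and for Peg3. The RefSeq table held windows for 8 of the 10 genes: Igf2, Meg3, Rian, Mirg, Dlk1, Peg3, Mest and Plagl1. The windows were searched on both strands for GGGGCCCC, a letter string given for binding of the zinc finger protein Plagl1, and for GCCATNTT, the YY1 string, and sites of the 2 strings cannot overlap. GGGGCCCC was found in the Peg3 window, where it stands in capitals, and in none of the other windows; 1.08% of 32851 mouse promoters hold it. GCCATNTT was found in none of the members' windows and in 6.05% of all promoters. The Peg3 window is on the minus strand at chr7:6730370-6730669 and holds 13 CpG pairs, against a median of 7 over all promoters. The first Meg3 window, on the plus strand at chr12:109540746-109541045, also holds 13, and the Rian window, on the plus strand at chr12:109603695-109603994, holds 0.
Peg3 promoter: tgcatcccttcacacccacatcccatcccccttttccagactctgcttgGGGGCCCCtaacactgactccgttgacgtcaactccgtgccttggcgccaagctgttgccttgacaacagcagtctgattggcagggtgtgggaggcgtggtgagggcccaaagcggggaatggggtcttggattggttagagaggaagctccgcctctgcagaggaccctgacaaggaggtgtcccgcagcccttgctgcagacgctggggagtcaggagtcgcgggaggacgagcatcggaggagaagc
Meg3 promoter: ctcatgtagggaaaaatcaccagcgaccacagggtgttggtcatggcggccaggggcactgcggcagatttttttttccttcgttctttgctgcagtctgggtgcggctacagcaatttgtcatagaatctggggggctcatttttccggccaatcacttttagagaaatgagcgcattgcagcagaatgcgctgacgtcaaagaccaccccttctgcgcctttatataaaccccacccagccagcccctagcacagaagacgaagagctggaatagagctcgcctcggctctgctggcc
Rian promoter: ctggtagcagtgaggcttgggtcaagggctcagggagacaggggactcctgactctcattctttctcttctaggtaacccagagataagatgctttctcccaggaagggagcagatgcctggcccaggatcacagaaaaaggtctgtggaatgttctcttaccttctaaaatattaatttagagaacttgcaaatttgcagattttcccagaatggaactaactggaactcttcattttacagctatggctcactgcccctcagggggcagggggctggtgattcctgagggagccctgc
The second Meg3 window, at chr12:109545148-109545447, holds 1 CpG pair and the Mirg window 10, so the 2 Meg3 starts differ in this.

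The libraries held 12.1 to 20.9 M counts. Prkaa2, which encodes AMPKalpha2, averaged 80.1 ± 18.5 CPM in HU mKO, 60.3 ± 26.3 CPM in AMB mKO, 254 ± 73.2 CPM in HU Ctrl and 213 ± 28.3 CPM in AMB Ctrl muscles (SD, n = 8, 7, 7 and 8). Prkaa1, which encodes AMPKalpha1, ran between 13.4 and 24.3 CPM in HU mKO, 8.21 and 36.2 in AMB mKO, 22.4 and 30.4 in HU Ctrl and 16.5 and 24.9 in AMB Ctrl muscles, so the AMB mKO range covered that of the ambulatory controls. Here CPM is the count scaled to the library total after TMM. AMB mKO replicate 2, a female, stood apart. Its median correlation with the other libraries was 0.827, and the next lowest was 0.923. Its 7 slow fibre markers summed to 452 CPM and its fast fibre markers to 3306 CPM, each the lowest of 30. Its 10 adipocyte markers summed to 12384 CPM and its fibro-adipogenic progenitor markers to 8892 CPM, each the highest. Its tenocyte, satellite cell and pericyte sums were also the lowest, and its macrophage sum the highest. The next highest adipocyte sums, 4659 and 4082 CPM, were in HU mKO replicates 3 and 2, also females. The 3 highest Schwann cell marker sums were in the same libraries. They were 1857 CPM in HU mKO replicate 3, 1629 CPM in AMB mKO replicate 2 and 889 CPM in HU mKO replicate 2. Changes and relations of the members that rest on these 3 adipocyte-rich libraries are given with and without some or all of them. The letters a, b and c at the end of the sample titles are not explained in the labels, and all 4 groups hold all 3. All unloaded mice of letter a were male and all of letter b female. The ambulatory sets held both sexes, except letter a of AMB mKO, which was all male. Differences within letters thus compare unlike mixes of sex in most sets.

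Per kilobase of annotated exon (GENCODE on GRCm38, while the authors name a later build), H19 was the most abundant of the 10 genes in every group, at 149 CPM per kb in HU mKO, 515 in AMB mKO, 119 in HU Ctrl and 551 in AMB Ctrl muscles. In the ambulatory controls that level ranked 55th of 16492 genes, and in the unloaded controls 191st. In the same order of groups, Peg3 followed at 11.2, 8.62, 5.20 and 4.92 CPM per kb, and Cdkn1c at 8.08, 11.5, 7.29 and 7.31 CPM per kb. The order of those 2 genes changed between groups, and their ranges over mice overlapped. Meg3, Rian, Mest, Plagl1, Igf2 and Mirg lay between 0.29 and 1.96 CPM per kb in group means, and Dlk1 between 0.03 and 0.06.

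**Figure D1:**
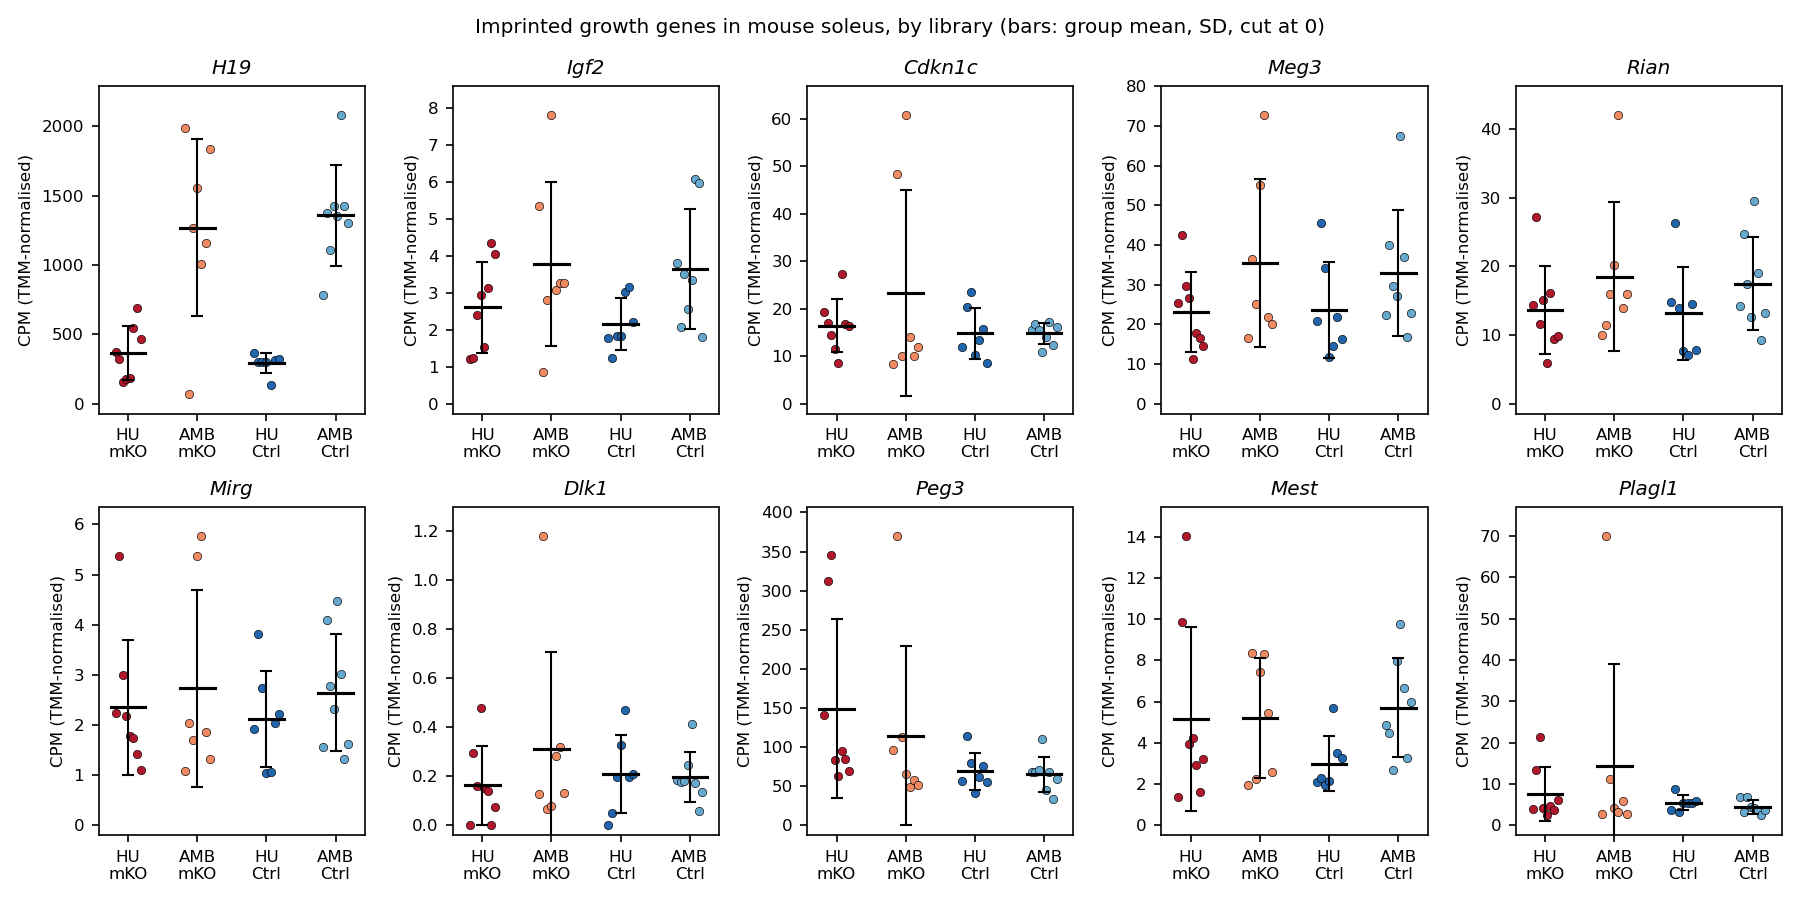
TMM-normalised CPM (y axis, linear, own scale per gene) of the 10 genes in each library, by group (x axis), with the group mean and SD. Lower SD bars that pass 0 are cut at the panel edge, just below 0. H19 sits between 158 and 694 CPM in HU mKO and between 134 and 368 CPM in HU Ctrl muscles, against 782 to 2080 CPM in AMB Ctrl muscles, while the AMB mKO muscles span 69.6 to 1988 CPM because of replicate 2.

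H19, the maternally expressed non-coding RNA at the end of the H19-Igf2 domain, was the member with the largest difference between unloaded and ambulatory muscle. In knockout mice it was 374, 327, 158, 178, 185, 549, 694 and 464 CPM in HU mKO replicates 1 to 8, against 1988, 69.6, 1264, 1553, 1007, 1158 and 1836 CPM in AMB mKO replicates 1 to 7. Every AMB mKO muscle but replicate 2 lay above every HU mKO muscle, and replicate 2 lay below all 8 of them. In controls it was 368, 301, 301, 302, 134, 319 and 327 CPM in HU Ctrl replicates 1 to 7, against 782, 1371, 1105, 1427, 1355, 2080, 1427 and 1301 CPM in AMB Ctrl replicates 1 to 8. The control groups did not overlap, and the unloaded controls were tightly grouped apart from replicate 5.

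The means were 366 ± 194 CPM in HU mKO and 1268 ± 638 CPM in AMB mKO muscles (SD, n = 8 and 7), a log2 change of -1.93 ± 0.42 (SE), or 3.82-fold lower. In controls they were 293 ± 74.0 CPM in HU Ctrl and 1356 ± 364 CPM in AMB Ctrl muscles (SD, n = 7 and 8), a log2 change of -2.15 ± 0.41, or 4.44-fold lower. The 95% intervals of these log2 changes ran between -2.80 and -1.07 in knockout and between -3.00 and -1.30 in control mice. In whole muscle, fewer cells of a type and less RNA per cell cannot be told apart. Without AMB mKO replicate 2 the AMB mKO mean was 1468 ± 391 CPM (SD, n = 6), the log2 change in knockout mice was -2.23 ± 0.28 and in controls, where the shared spread narrowed, -2.10 ± 0.26. Without the 3 adipocyte-rich libraries the changes were -2.10 ± 0.27 in knockout and -2.12 ± 0.24 in control mice. In every one of these fits H19 was lower in unloaded muscle of both genotypes.

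Among genes called lower (adjusted p below 0.05 in edgeR) with a mean of at least 1 CPM, the fall of H19 ranked 31st of 760 in knockout and 29th of 935 in control mice. The size of the difference varied between title letters. In knockout mice unloaded minus ambulatory log2 CPM was -2.79 for letter a, -1.53 for b and -0.15 for c, and the c set holds AMB mKO replicate 2. In controls it was -2.98, -2.08 and -1.72 for a, b and c. By sex the difference was 0.07 in female and -2.53 in male knockout mice, and -2.17 in female and -2.15 in male controls. The female knockout value compares 5 unloaded with 2 ambulatory mice, 1 of which is replicate 2. H19 was therefore lower after unloading in 6 of 6 sets by letter and 3 of 4 by sex. The 3 highest unloaded values, 549, 694 and 464 CPM, were all from letter b females with the knockout.

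**Figure D2:**
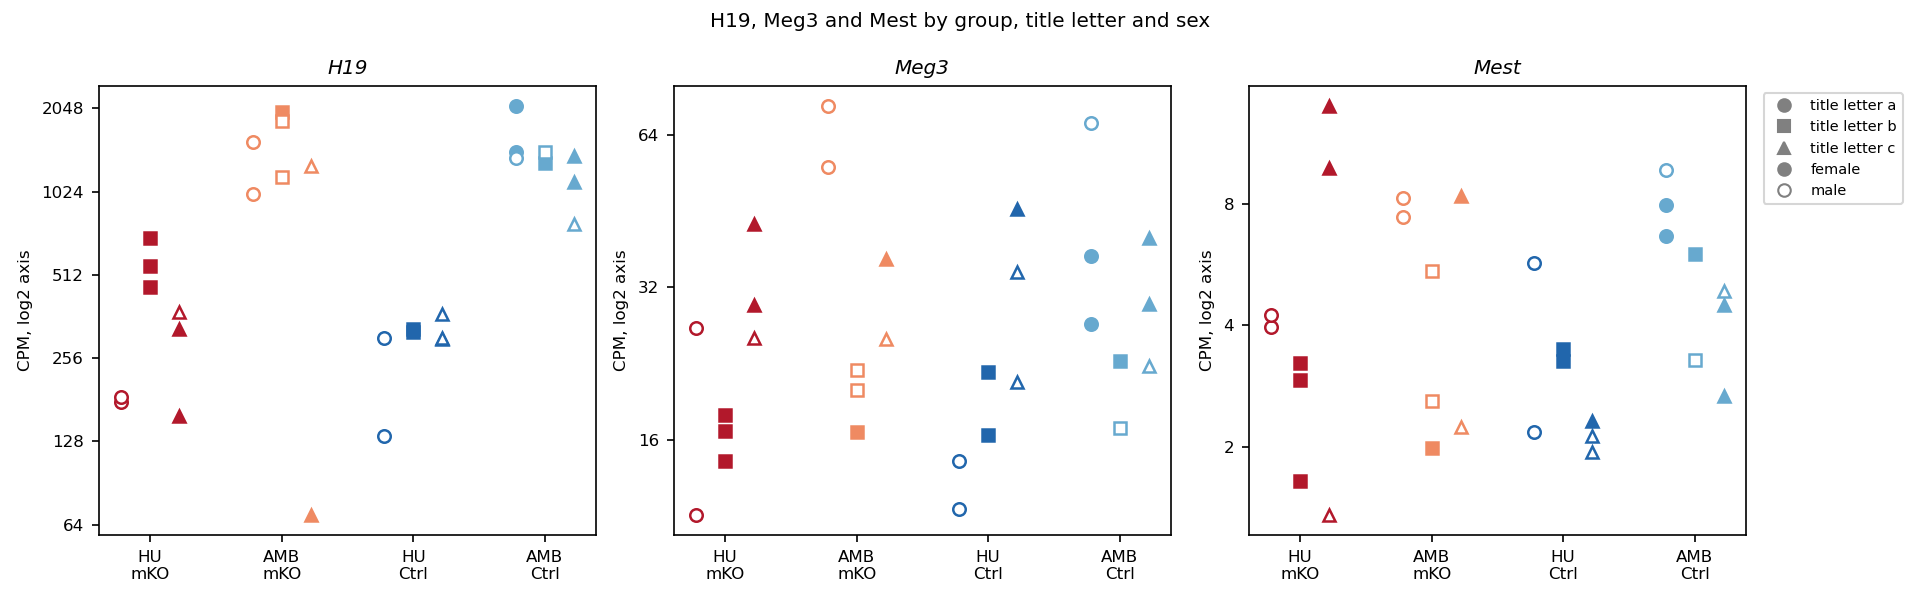
CPM on a log2 axis (y) of H19, Meg3 and Mest in each library by group (x), with the title letter as the marker shape and females filled. Mean H19 is lower in unloaded muscle within each letter and genotype (log2 differences between -2.98 and -0.15), whereas the highest Meg3 values, 72.7 and 67.3 CPM, belong to letter a in ambulatory mice.

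Igf2 encodes insulin-like growth factor 2 and shares its enhancers with H19. It was at a low level, 18 to 105 counts per library. The HU mKO muscles ran over 1.22, 2.67 and 4.35 CPM (lowest, median, highest) and the AMB mKO muscles over 0.86, 3.27 and 7.82 CPM. The HU Ctrl muscles ran over 1.26, 1.84 and 3.17 CPM and the AMB Ctrl muscles over 1.82, 3.44 and 6.09 CPM. All groups overlapped. The log2 changes were -0.51 ± 0.37 in knockout and -0.77 ± 0.36 in control mice, neither past the threshold, and the value was lower after unloading in 6 of 6 sets by letter, with differences between -1.16 and -0.02, and in 3 of 4 by sex, where female knockout mice had 0.33. The antisense row Igf2os reached 6 counts and Ins2, the neighbouring insulin gene, 2.

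Cdkn1c encodes p57, an inhibitor of cyclin-dependent kinases that arrests dividing myoblasts and satellite cells. HU mKO muscles had 8.72, 16.6 and 27.4 CPM (lowest, median, highest) and AMB mKO muscles 8.37, 11.9 and 60.8 CPM. HU Ctrl muscles had 8.66, 13.4 and 23.5 CPM and AMB Ctrl muscles 11.0, 15.6 and 17.3 CPM. The groups overlapped throughout, but AMB mKO replicates 4 and 2, at 60.8 and 48.4 CPM, stood above all other libraries. AMB mKO minus AMB Ctrl was 0.73 ± 0.35 on the log2 scale, and -0.38 without those 2 libraries, so its sign rested on them. HU mKO minus AMB mKO was likewise -0.59 ± 0.35, and 0.53 without them. In controls the unloading value was 0.05. Of 9 genes tested of 12 at the Cdkn1c-Kcnq1ot1 locus, Cd81, a membrane tetraspanin, was lower in HU mKO muscles at 72.3 ± 12.6 CPM, against 99.0 ± 32.5 CPM in AMB mKO muscles (SD, n = 8 and 7; log2 change -0.51 ± 0.14, edgeR adjusted p = 0.0238), and no gene there was called in controls. Without AMB mKO replicate 2 the Cd81 change in knockout mice was -0.30 (edgeR adjusted p = 0.137). Without the 3 adipocyte-rich libraries it was -0.42 in knockout and -0.37 in control mice (edgeR adjusted p = 0.0279 and 0.0247).

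Meg3, Rian and Mirg are the maternally expressed non-coding RNAs of the Dlk1-Dio3 domain, and their cluster carries the chromosome 12 microRNAs shown above. Meg3 had 11.4, 21.7 and 42.6 CPM (lowest, median, highest) in HU mKO and 16.6, 25.3 and 72.7 CPM in AMB mKO muscles. It had 11.7, 20.8 and 45.6 CPM in HU Ctrl and 16.9, 28.4 and 67.3 CPM in AMB Ctrl muscles. Medians were lower in unloaded muscle and the ranges overlapped widely. Rian, which also carries small nucleolar RNAs, averaged 13.7 ± 6.40 CPM in HU mKO, 18.5 ± 10.9 CPM in AMB mKO, 13.2 ± 6.73 CPM in HU Ctrl and 17.5 ± 6.75 CPM in AMB Ctrl muscles (SD, n = 8, 7, 7 and 8). Mirg averaged 2.35 ± 1.35, 2.74 ± 1.96, 2.12 ± 0.96 and 2.65 ± 1.17 CPM in the same groups. All 3 had lower means in unloaded muscle, by less than the larger SD of the groups compared.

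The log2 change of Meg3 was -0.62 ± 0.36 in knockout and -0.48 ± 0.35 in control mice. Rian had -0.46 and -0.40, and Mirg -0.26 and -0.30, in knockout and control mice. Without the 3 adipocyte-rich libraries the knockout values were -0.87, -0.77 and -0.70 for Meg3, Rian and Mirg. The Meg3 difference lay mainly in letter a, at -1.86 in knockout and -1.63 in control mice, where unloaded means of 19.0 and 13.1 CPM stood against ambulatory means of 64.0 and 43.8 CPM. In letter b it was -0.25 and -0.06, and in letter c 0.07 and 0.09, in knockout and control mice. Each letter set holds 2 or 3 mice a group, and with the letter as a term the Meg3 changes were -0.71 ± 0.30 in knockout and -0.37 ± 0.29 in control mice. Dlk1, the paternally expressed transmembrane ligand of the Notch family at the same domain, had 0 to 26 counts and did not pass the low-count filter. Its 26 counts, or 1.18 CPM, were in AMB mKO replicate 2. Rtl1 reached 7 counts and Dio3 reached 28, so the paternally expressed side of the domain was hardly detected at this depth.

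Peg3 encodes a paternally expressed zinc finger protein found in muscle stem cells and other progenitors. It had 63.4, 89.6 and 346 CPM (lowest, median, highest) in HU mKO and 49.4, 65.2 and 369 CPM in AMB mKO muscles. It had 41.9, 61.6 and 114 CPM in HU Ctrl and 34.4, 68.0 and 111 CPM in AMB Ctrl muscles. The 3 highest values, 369, 346 and 312 CPM, came from the 3 adipocyte-rich libraries, and all groups overlapped. The log2 differences between genotypes were 0.86 ± 0.35 for HU mKO against HU Ctrl and 0.95 ± 0.34 for AMB mKO against AMB Ctrl. Without those 3 libraries they were 0.38 and 0.30. Unloading values were 0.20 in knockout and 0.28 in control mice, and in knockout mice 0.72 ± 0.34 without AMB mKO replicate 2 and 0.22 without the 3 libraries. Zim1, its maternally expressed neighbour, averaged 11.3 ± 8.77 CPM in HU mKO, 8.87 ± 9.96 CPM in AMB mKO, 5.77 ± 2.91 CPM in HU Ctrl and 5.93 ± 3.21 CPM in AMB Ctrl muscles (SD, n = 8, 7, 7 and 8).

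Mest, also called Peg1, encodes a paternally expressed hydrolase-like protein that rises in growing fat. It had 1.36, 3.60 and 14.0 CPM (lowest, median, highest) in HU mKO and 1.98, 5.45 and 8.37 CPM in AMB mKO muscles. It had 1.94, 2.31 and 5.71 CPM in HU Ctrl and 2.67, 5.43 and 9.75 CPM in AMB Ctrl muscles. In both genotypes the median was lower after unloading, with overlap, and the 2 highest HU mKO values were in replicates 3 and 2, at 14.0 and 9.85 CPM. The log2 changes were -0.11 ± 0.45 in knockout and -0.89 ± 0.43 in control mice. The knockout value was 0.10 ± 0.50 without AMB mKO replicate 2, so its sign turned. Without the 3 adipocyte-rich libraries the changes were -0.60 ± 0.39 in knockout and -0.99 ± 0.34 in control mice. Copg2 overlaps Mest on the opposite strand with up to 771 counts, and no source used here says whether the counting used strand, so reads of the 2 genes may not be told apart.

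Plagl1, or Zac1, encodes a paternally expressed zinc finger regulator of other imprinted genes. It had 2.47, 4.45 and 21.3 CPM (lowest, median, highest) in HU mKO and 2.75, 4.27 and 69.9 CPM in AMB mKO muscles. It had 3.23, 5.52 and 8.84 CPM in HU Ctrl and 2.53, 4.05 and 6.92 CPM in AMB Ctrl muscles. The value of 69.9 CPM was in AMB mKO replicate 2, and the next, 21.3 and 13.5 CPM, were in HU mKO replicates 3 and 2. AMB mKO against AMB Ctrl was 1.59 ± 0.50 on the log2 scale, and 0.41 without replicate 2. HU mKO against AMB mKO was -1.07 ± 0.50, 0.28 without it and -0.33 without the 3 libraries, so the sign depended on which libraries were kept.

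**Figure D3:**
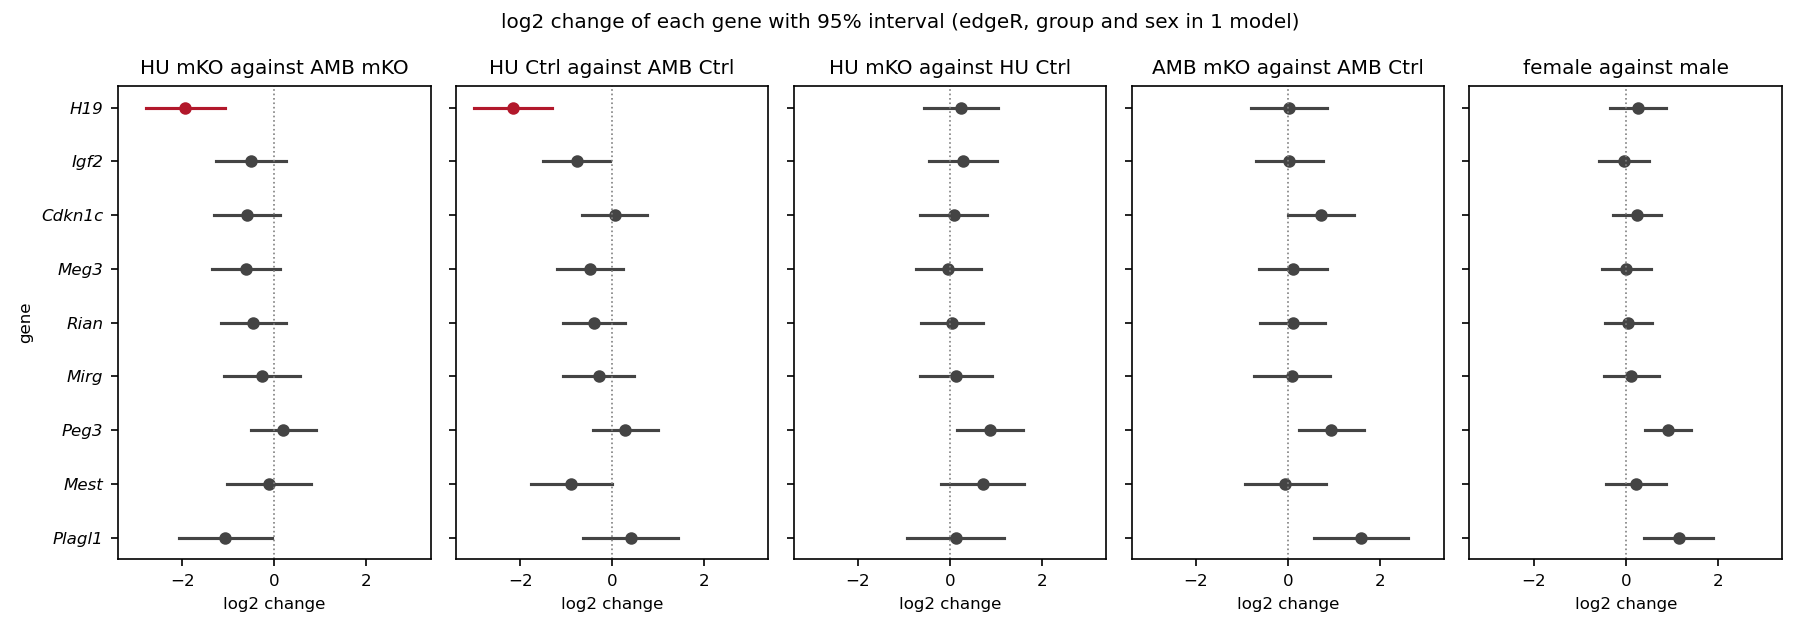
log2 change (x) of the 9 genes that passed the low-count filter, with 95% intervals, in 5 comparisons (panels), the first group named over the second; a red point was called. H19 lies at -1.93 and -2.15 in the 2 unloading comparisons and near 0 between genotypes, at 0.24 and 0.02.

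In all, 9 of the 10 genes were tested with 16932 genes in 1 edgeR model of group and sex. In HU mKO against AMB mKO 1 of 9 was called, H19, where 10.1% of all genes were called, and in HU Ctrl against AMB Ctrl again 1 of 9, H19, where 11.1% were. These shares are about those of all genes, and the 2 comparisons share no samples. The ranges of HU Ctrl and AMB Ctrl did not overlap for H19 alone, against 3.56% of all genes. Those of HU mKO and AMB mKO overlapped for every member, where 1.51% of genes did not overlap. Without AMB mKO replicate 2 they did not overlap for H19, against 3.87% of genes. The median log2 change of the 9 was -0.51 in knockout and -0.40 in control mice, beside -0.04 and 0.03 over all genes tested, and 8 and 6 of the 9 had values below 0. The knockout median was -0.36 without AMB mKO replicate 2, and 6 of 9 were below 0. Without the 3 adipocyte-rich libraries the medians were -0.65 in knockout and -0.42 in control mice, with 8 and 7 of 9 below 0. Meg3, Rian and Mirg lie in 1 cluster and vary together, so the 9 values are not independent.

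Between genotypes, 0 of 9 were called in HU mKO against HU Ctrl and 0 in AMB mKO against AMB Ctrl, where 0.0177% and 0.0177% of all genes were. At an unadjusted p below 0.05 edgeR, DESeq2 and limma voom counted 1, 1 and 1 members in the unloaded comparison. In the ambulatory comparison they counted 3, 3 and 0. In edgeR the ambulatory 3 were Cdkn1c, Peg3 and Plagl1. Without AMB mKO replicate 2, alone or with other libraries, their values above were smaller or turned sign. The shares of all genes at an unadjusted p below 0.05 are not given here, so such counts, also those below, are not read. The difference between genotypes in the change with unloading was called for 0 of 9 members, where 0% of genes were, and unadjusted for 1, 1 and 0 by the same tools. For H19 that difference was 0.22 ± 0.59 on the log2 scale, with a 95% interval between -0.99 and 1.42, and without AMB mKO replicate 2 it was -0.13 ± 0.38, so its sign rested on that library. Sex was assumed to have played no part in the choice of the genes. Females against males gave 0 calls of 9 in edgeR, where 0.213% of genes were called. Unadjusted, 2 passed in edgeR, DESeq2 and limma voom alike. DESeq2 called 1, Peg3, and called 129 genes in all, against 36 in edgeR.

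Peg3 averaged 133 ± 110 CPM in females and 67.6 ± 28.1 CPM in males (SD, n = 15 each), a log2 difference of 0.92 ± 0.25 with an edgeR adjusted p of 0.134. With the title letter in the model the difference was 0.96 and the adjusted p 0.00225. All 3 adipocyte-rich libraries were female, and without them the difference was 0.34 with an adjusted p of 0.903. Plagl1 was likewise 1.15 ± 0.37 (edgeR adjusted p = 0.214), and 0.15 without them. Zim1, beside Peg3, had a sex difference of 1.13 ± 0.28 with an edgeR adjusted p of 0.0970. Zim1 followed Peg3 closely over all libraries (r = 0.926). No Zim1 value without the 3 adipocyte-rich libraries is given here, so its difference does not stand apart from that of Peg3. The H19 difference between sexes was 0.28 ± 0.30 (edgeR adjusted p = 0.740).

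Which members varied together between mice was asked with the group and sex removed, over 30 libraries and 36 pairs of the 9 genes. By a two-sided permutation test of 100000 resamples with Benjamini-Hochberg adjustment, 14 pairs passed, 9 of them positive. The 3 strongest positive pairs joined the RNAs of the Dlk1-Dio3 domain. Meg3 and Mirg had Pearson's r = 0.926 and Spearman's rho = 0.914 (permutation p = 1e-05 for each, the smallest that the resamples can give; adjusted 7.2e-05 and 9e-05), and r = 0.909 without the 2 libraries farthest from the Meg3 median. Meg3 and Rian had r = 0.871 and rho = 0.834, and 0.829 without the 2 farthest. Rian and Mirg had r = 0.808 and rho = 0.758, and 0.751 without the 2 farthest, and both pairs had the same adjusted values as the first. All 3 relations were nearly as strong without the mice at the ends of the range. Without the 3 adipocyte-rich libraries the 3 pairs gave 0.925, 0.909 and 0.799. Within letters a, b and c (9, 10 and 11 libraries) r was 0.924, 0.779 and 0.913 for Meg3 with Mirg, 0.959, 0.768 and 0.727 for Meg3 with Rian, and 0.855, 0.447 and 0.834 for Rian with Mirg. The Rian and Mirg value in letter b was the lowest of these 9, and values within letters were not tested. These genes lie in 1 transcribed cluster, so reads of a shared transcript could fall in more than 1 of them.

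Without the 3 adipocyte-rich libraries 5 pairs passed, the 3 above and Cdkn1c with Meg3 and with Mirg. Cdkn1c with Mirg had not passed over all 30 libraries, at r = 0.387 (permutation, adjusted p = 0.0766). It had 0.515 without the 3 libraries (permutation, adjusted p = 0.0315). Cdkn1c and Meg3 had r = 0.495 and rho = 0.521 (permutation, adjusted p = 0.0205 for r), and 0.563 without the 3 adipocyte-rich libraries; within letters a, b and c r was 0.467, 0.559 and 0.293. H19 and Igf2, the neighbours that share enhancers, had r = 0.561 and rho = 0.447 (permutation, adjusted p = 0.00594 for r), 0.425 without the 2 farthest libraries, and 0.227 with an adjusted p of 0.326 without AMB mKO replicate 2. H19 and Plagl1 had r = -0.774 and rho = -0.577, and -0.280 with a permutation adjusted p of 0.457 without the 3 adipocyte-rich libraries. Peg3 and Plagl1 had r = 0.771 and rho = 0.726, and 0.385 with a permutation adjusted p of 0.210 without them, and within letters a, b and c 0.486, -0.034 and 0.800. These 2 pairs no longer held once those libraries were removed. H19 with Meg3, at r = -0.104 (permutation, adjusted p = 0.656), did not pass.

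**Figure D4:**
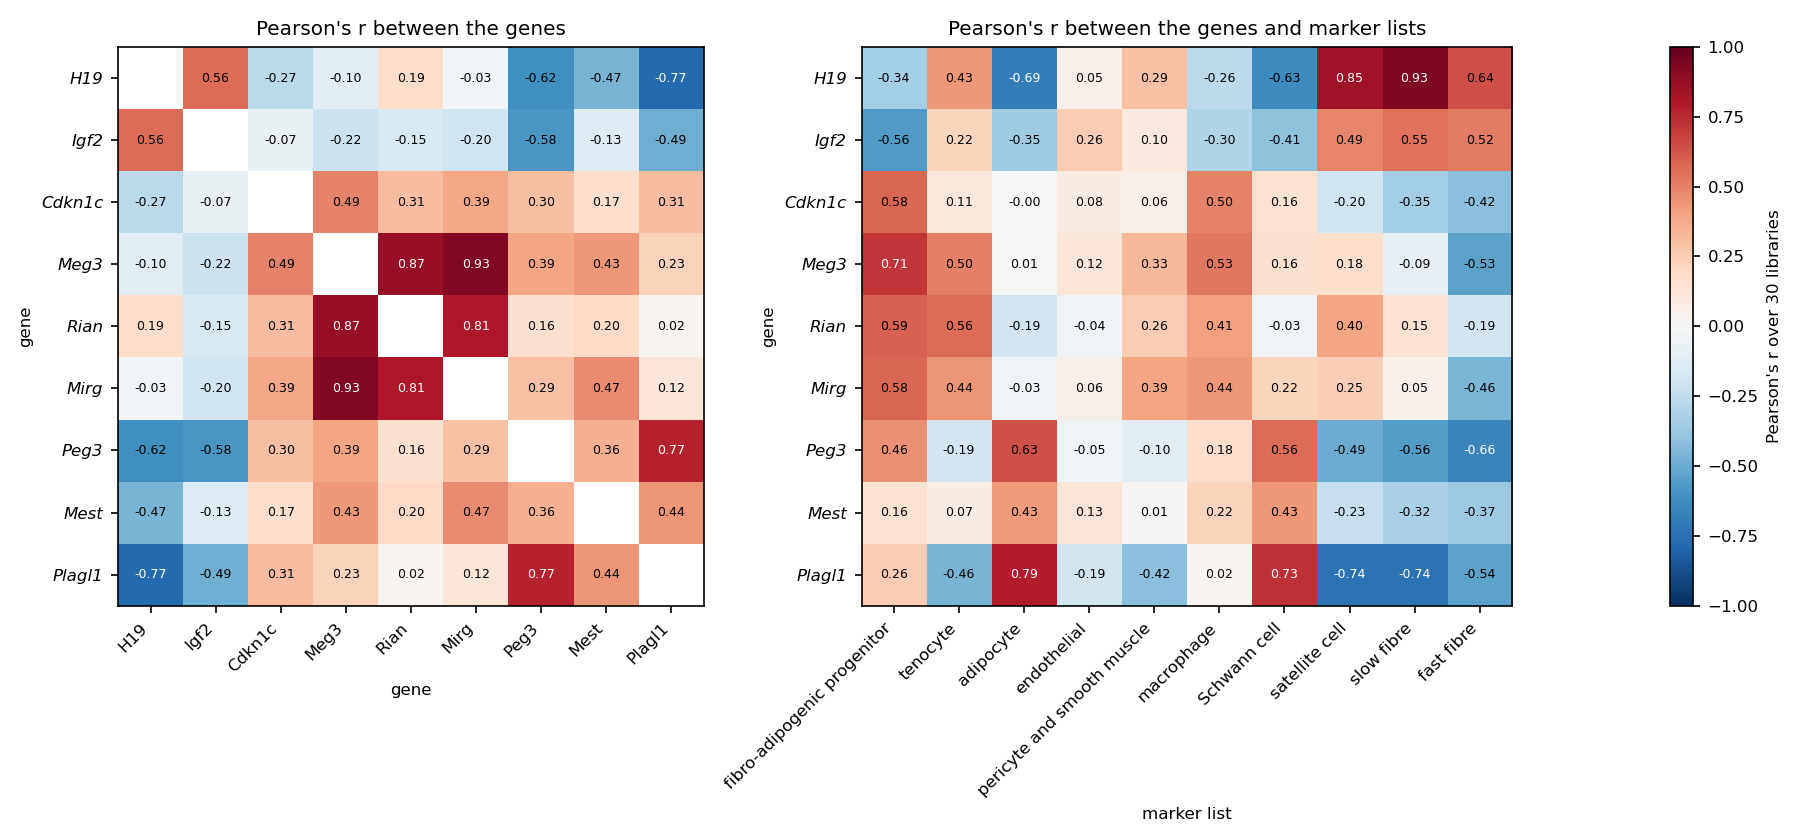
Pearson's r over 30 libraries after removal of group and sex, between the 9 genes (left; genes on both axes) and between the genes and 10 marker lists (right); red is positive and blue negative. Meg3, Rian and Mirg form a block of 0.81 to 0.93, and H19 stands at 0.93 with slow fibre and -0.69 with adipocyte markers.

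The same residuals were set against the mean of each of 10 lists of cell type markers, 90 relations with 20000 resamples. 37 passed, 20 without AMB mKO replicate 2 and 18 without the 3 adipocyte-rich libraries, and no member is on a marker list. H19 varied with the slow fibre markers, at r = 0.932 and rho = 0.765 (permutation, adjusted p = 0.0009 and 0.0015), 0.790 without the 2 farthest libraries, 0.719 without replicate 2 and 0.732 without the 3 libraries. Within letters a, b and c it was 0.874, 0.579 and 0.962. Muscles of 1 group and sex with more slow fibre RNA thus had more H19. H19 ran against the adipocyte markers at r = -0.693 and rho = -0.646 (permutation, adjusted p = 0.00129 for r), and at -0.554 without the 3 libraries (adjusted p = 0.0189). With the satellite cell list r was 0.851, and 0.402 with a permutation adjusted p of 0.0892 without replicate 2. The fast fibre and Schwann cell lists gave H19 r = 0.644 and -0.630 (permutation, adjusted p = 0.00262 and 0.00245). Without the 3 libraries these were 0.022 and -0.201 (permutation, adjusted p = 0.956 and 0.553).

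The 7 slow fibre markers summed to 10604, 15619 and 34672 CPM (lowest, median, highest) in HU mKO, 452, 24193 and 37459 CPM in AMB mKO, 10482, 21247 and 28205 CPM in HU Ctrl and 16262, 28798 and 41859 CPM in AMB Ctrl muscles. Medians of the sums were lower in unloaded muscle. Sums in unloaded and ambulatory muscle overlapped, none of the 7 markers was called in either comparison, and their median log2 change was -0.66 in knockout and -0.73 in control mice, where H19 changed by -1.93 and -2.15. The part of fibre makeup in the H19 difference was not tested. Of 10 fast fibre markers 3 were called higher and 1 lower in each unloading comparison. Myh2, the fast oxidative myosin, was lower at 1430 ± 1224 CPM in HU mKO, against 9690 ± 4622 CPM in AMB mKO muscles (SD, n = 8 and 7; edgeR adjusted p = 0.00829), and Myh1, the glycolytic form, was higher at 20023 ± 14714 CPM, against 6357 ± 3287 CPM (edgeR adjusted p = 0.0403).

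Meg3 varied with markers of fibro-adipogenic progenitors, the connective tissue cells of muscle, at r = 0.711 and rho = 0.741 (permutation, adjusted p = 0.0018 for r). It was 0.731 without the 2 farthest libraries and 0.778 without the 3 adipocyte-rich ones, and 0.814, 0.412 and 0.667 within letters a, b and c. Rian and Mirg had 0.593 and 0.578 with the same list (permutation, adjusted p = 0.006 and 0.00758), and Cdkn1c 0.576 (permutation, adjusted p = 0.00415). Meg3 was also related to the tenocyte, macrophage and fast fibre lists, at r = 0.504, 0.529 and -0.534. Their permutation adjusted p-values were 0.0163, 0.0115 and 0.00855. Without the 3 adipocyte-rich libraries they had r = 0.653, 0.631 and -0.629. The relation of Meg3 was thus not particular to the progenitor list. The 10 progenitor markers summed to 1555, 2257 and 3372 CPM (lowest, median, highest) in HU mKO, 1421, 2268 and 8892 CPM in AMB mKO, 1424, 2709 and 4308 CPM in HU Ctrl and 1875, 2095 and 2911 CPM in AMB Ctrl muscles, with wide overlap. Their median log2 change was -0.57 in knockout mice, with 9 of 10 below 0 and 2 called lower, and 0.12 in controls, with 4 of 10 below 0 and 1 called lower. The part of these cells in the Meg3 values was not tested. Plagl1 varied with the adipocyte markers at r = 0.789 and rho = 0.737 (permutation, adjusted p = 0.0009 for r), and 0.577 with an adjusted p of 0.0111 without the 3 libraries. Peg3 did so at 0.634, and 0.206 with a permutation adjusted p of 0.553 without them. Plagl1 was also related to the Schwann cell, slow fibre and satellite cell lists, at r = 0.728, -0.738 and -0.736. Their permutation adjusted p-values were 0.0009, 0.0009 and 0.00129. Without the 3 libraries they had r = 0.289, -0.372 and -0.308 (permutation, adjusted p = 0.332, 0.188 and 0.306). Over all libraries the relation of Plagl1 was thus not particular to the adipocyte list. The part of these cell types in the differences between groups was not tested.

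**Figure D5:**
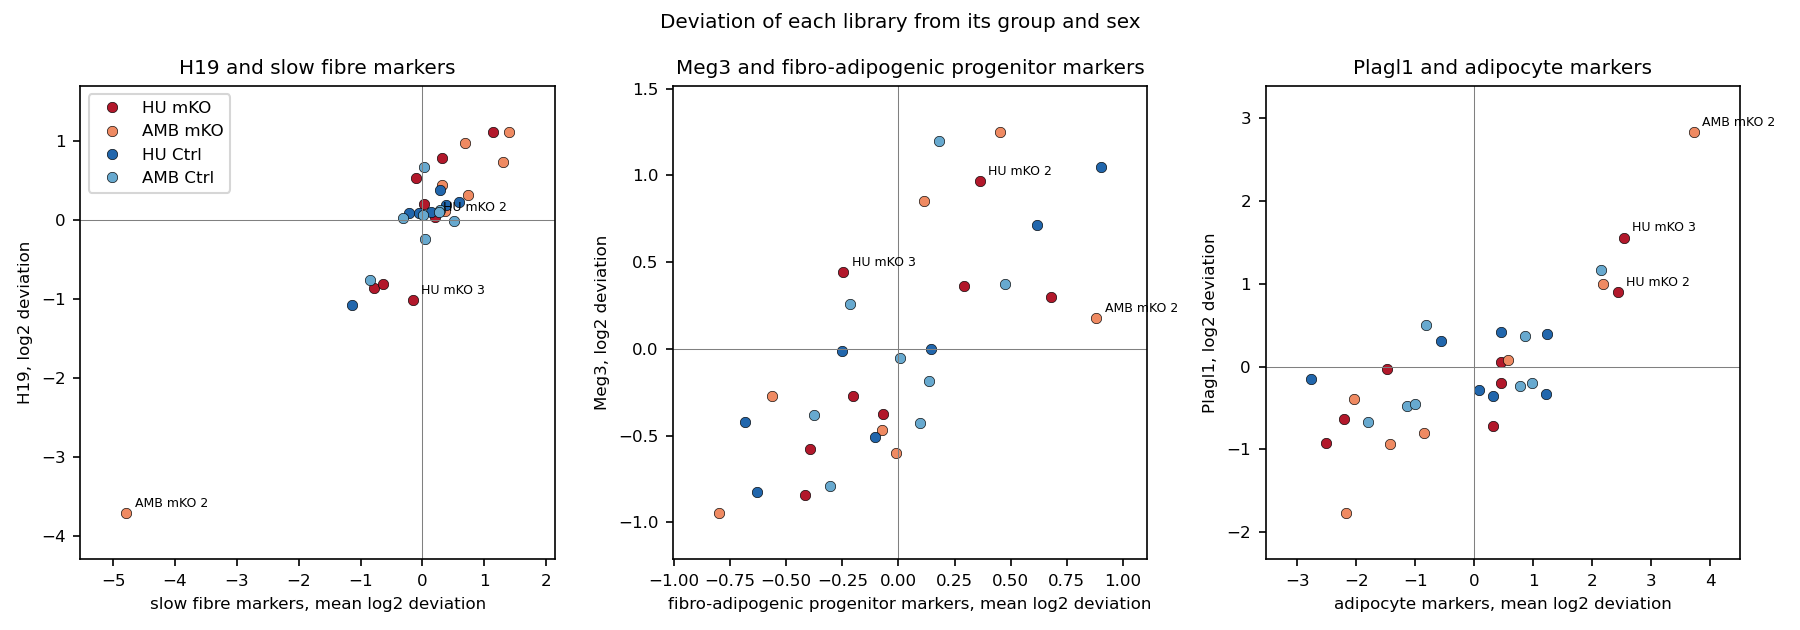
Deviation of each library from its group and sex, in log2 units, for H19 (y) against the mean of slow fibre markers (x), Meg3 against fibro-adipogenic progenitor markers and Plagl1 against adipocyte markers, with the 3 adipocyte-rich libraries named. AMB mKO replicate 2 lies far from the rest for H19 and Plagl1 and within the cloud for Meg3, and r is 0.932, 0.711 and 0.789.

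Over all 30 libraries, with groups left in, the genes most like H19 in log2 CPM among 12516 were Mavs (r = 0.956), Coa3 (0.943), Dffa (0.935), Mrpl19 (0.931) and Banf1 (0.931), and these values were 0.945, 0.936, 0.931, 0.916 and 0.914 without AMB mKO replicate 2. Coa3 and Mrpl19 encode mitochondrial proteins and Mavs a mitochondrial signalling protein. Meg3 was most like Mirg (0.900), Rian (0.886) and Bmp1 (0.864), a collagen-processing protease. Peg3 was most like its neighbour Zim1 (0.926), and Plagl1 was most like Ppp1r9a (0.938), another imprinted gene, and Dgat1 (0.921), an enzyme of triglyceride synthesis. Without AMB mKO replicate 2 these values were 0.903, 0.883 and 0.848. Mest was most like Col18a1 (0.781), Igf2 like Ppp1r37 (0.853) and Cdkn1c like Ccdc34 (0.751). Without that library these were 0.773, 0.828 and 0.657, at ranks 3, 2 and 7. These correlations share the libraries and their group differences, and they describe likeness only.

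Imprinted genes at other loci were listed to set the members beside them. Of 42 at other loci 35 were tested, with 4 called higher and 1 lower in HU mKO against AMB mKO and the same numbers in HU Ctrl against AMB Ctrl. That is 14.3% of the list in each, near the 10.1% and 11.1% of all genes. Peg13, a non-coding RNA, and Gab1, a docking protein of growth factor receptors, were called higher in both. Gab1 averaged 55.0 ± 6.76 CPM in HU mKO and 41.4 ± 11.0 CPM in AMB mKO muscles (SD, n = 8 and 7; log2 change 0.41, edgeR adjusted p = 0.0476). In controls Peg10, a retrotransposon-derived gene, averaged 4.32 ± 0.85 CPM in HU Ctrl and 2.34 ± 0.61 CPM in AMB Ctrl muscles (SD, n = 7 and 8; log2 change 1.04, edgeR adjusted p = 0.0399). Grb10, an adaptor that restrains insulin and IGF signalling, was the one called lower in controls at 103 ± 22.1 CPM in HU Ctrl, against 142 ± 24.8 CPM in AMB Ctrl muscles (log2 change -0.41, edgeR adjusted p = 0.0331). Without AMB mKO replicate 2, Grb10 was -0.39 in knockout mice (edgeR adjusted p = 0.0479) and Peg10 was 0.93 (edgeR adjusted p = 0.0136), and without the 3 adipocyte-rich libraries they were -0.38 and 0.72 (edgeR adjusted p = 0.0717 and 0.0413). None of the 35 was called between genotypes.

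Among IGF ligands, receptors and carriers, 14 of 18 were tested, and 21.4% were called in knockout and 35.7% in control mice, beside 10.1% and 11.1% of all genes. In knockout mice 1 was called higher, the receptor Igf1r at 86.5 ± 7.58 CPM in HU mKO, against 67.3 ± 7.87 CPM in AMB mKO muscles (SD, n = 8 and 7; log2 change 0.31, edgeR adjusted p = 0.0316), and 2 lower, Igfbp7 (-1.14, edgeR adjusted p = 0.00702) and Irs1 (-0.64, edgeR adjusted p = 0.0278). Igfbp7 is a secreted binding protein, and Irs1 links the insulin and IGF receptors to their kinases. In controls 2 were called higher, Igf1r and the IGF carrier Igfbp5, which averaged 507 ± 166 CPM in HU Ctrl and 257 ± 98.7 CPM in AMB Ctrl muscles (SD, n = 7 and 8; log2 change 1.01 ± 0.28, edgeR adjusted p = 0.0181). The 3 called lower were the receptor Insr and its substrates Irs1 and Irs2, of which Irs2 had 73.3 ± 16.3 CPM in HU Ctrl, against 132 ± 28.0 CPM in AMB Ctrl muscles (log2 change -0.85 ± 0.16, edgeR adjusted p = 0.000933). Without AMB mKO replicate 2 the values in knockout mice were 0.26 for Igf1r (edgeR adjusted p = 0.0540), -0.79 for Igfbp7 (edgeR adjusted p = 0.0420), -0.73 for Irs1 (edgeR adjusted p = 0.00922) and 0.93 for Igfbp5 (edgeR adjusted p = 0.0395), so the Igf1r call ended there. The ligand Igf2 was not among the calls in either genotype.

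Of the progenitor and regeneration genes 12 of 15 were tested, with 16.7% called in knockout and 8.33% in control mice, shares that rest on 2 genes and 1 gene. Myh3, the embryonic myosin, was called lower in both genotypes. It averaged 28.0 ± 19.7 CPM in HU mKO and 121 ± 77.2 CPM in AMB mKO muscles (SD, n = 8 and 7; log2 change -2.30 ± 0.53, edgeR adjusted p = 0.00767), and 14.8 ± 4.57 CPM in HU Ctrl and 104 ± 56.4 CPM in AMB Ctrl muscles (SD, n = 7 and 8; log2 change -2.74 ± 0.50, edgeR adjusted p = 0.000888). The proliferation gene Mki67 was called lower in knockout mice, at -1.76 (edgeR adjusted p = 0.0418). None of 6 CDK inhibitors tested of 8 was called, Cdkn1c included. Of 13 Notch genes tested of 15, the endothelial receptor Notch4 was lower in both genotypes, at -0.60 in knockout and -0.68 in control mice (edgeR adjusted p = 0.0407 and 0.0168), and the knockout call ended without AMB mKO replicate 2 (edgeR adjusted p = 0.0567) but not without the 3 libraries (edgeR adjusted p = 0.0391). Of 15 tested of 17 regulators of the H19-Igf2 and Dlk1-Dio3 domains, Zfp445, a zinc finger protein that keeps imprints methylated, was called higher in both, at 110 ± 8.96 CPM in HU mKO, against 84.0 ± 13.5 CPM in AMB mKO muscles (SD, n = 8 and 7; log2 change 0.40, edgeR adjusted p = 0.0216), and at 0.35 in controls (edgeR adjusted p = 0.0372). Zfp57, which has a like role, was lower in knockout mice at 0.29 ± 0.13 CPM in HU mKO, against 0.58 ± 0.22 CPM in AMB mKO muscles (edgeR adjusted p = 0.0424), both near the limit of detection, and this call also ended without that library (edgeR adjusted p = 0.0618). The shares called in knockout and control mice were 7.69% and 7.69% of the Notch list and 13.3% and 6.67% of the regulators, near those of all genes. No gene of these lists was called between genotypes or in the difference between genotypes.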

How the data were processed

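The 10 genes, the gene lists and the marker lists were chosen with earlier results of these data known, and the alternatives that leave out several libraries together were in part added after the data had been seen. The authors deposited unnormalised counts of reads for each Ensembl gene in each mouse. Their tools included STAR 2.7.9a, featureCounts 1.6.3, DESeq2 1.34.0 and cutadapt 1.16, with the builds GRCm39 and mm39, per the submitters' processing notes. Libraries came from total RNA with a directional kit, per the labels' protocols. The annotation release and any filter are not stated there. Other protocol text speaks of people and of cultured cells, does not match mouse soleus and was left aside.

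Groups and sex came from the sample labels, and each group held separate mice. Scaling was by TMM (edgeR 4.0.16, R 4.3.3). Genes with low counts were removed by filterByExpr, which left 16932 of 56980 genes, 52073 of which had a symbol. All 30 libraries entered 1 robust quasi-likelihood model of group and sex, and p-values were adjusted over all genes tested by Benjamini-Hochberg; a call is an adjusted p below 0.05. The model and its recovery of known changes were tested on simulated data. DESeq2 1.42.0 and limma 3.58.1 gave alternative tests. Residual log2 CPM, with a prior count of 2, was used for relations between mice. All 10 genes are named in every comparison; of each list, up to 4 genes with the smallest p may be named, and of the genes most like H19 the first 5, or the first 3 for other members. Sequences, hairpins and exon lengths came from RefSeq and GENCODE on GRCm38.p6, not from the authors' build, and positions belong to that build.

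With totals of 12.1 to 20.9 M counts, the precision of most members is set by the spread between mice, and that of Dlk1, at 0 to 26 counts, by counting error. Within groups, 98 pairs of libraries were checked for duplication and none differed by as little as sampling noise. The sex shown by the RNA matched the label in all 30 mice.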

Additional observations from a re-analysis of the deposited data

Results flagged for a closer look

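In each group of 7 or 8 mice the highest and lowest value of each of the 10 genes was compared with the rest by Dixon's test, 40 groups in all. If values were normal and groups independent, chance would mark about 1 in 20 groups. CPM need not be normal and several members vary together, so that rate is a rough guide only. Here 10 values stood out, 3 of them in AMB mKO replicate 2. In that library Plagl1 was at 69.9 CPM (the next highest of the group 11.3), Peg3 at 369 CPM (next 113) and Dlk1 at 1.18 CPM (next 0.32). It also had the highest adipocyte and fibro-adipogenic progenitor and the lowest slow and fast fibre marker sums of all libraries. The part of those cells in the values was not tested.

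HU Ctrl replicate 5 stood out low for H19, at 134 CPM (nearest 301), and high for Mest, at 5.71 CPM (nearest 3.50). In the Dlk1-Dio3 domain Rian stood out at 42.0 CPM in AMB mKO replicate 5 (nearest 20.2) and at 26.3 CPM in HU Ctrl replicate 2 (nearest 14.8), Meg3 at 67.3 CPM in AMB Ctrl replicate 5 (nearest 40.1) and Mirg at 5.37 CPM in HU mKO replicate 2 (nearest 2.99). Peg3 was also high in AMB Ctrl replicate 4, at 111 CPM (nearest 70.3).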

How the results depend on the processing

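Calls of members between groups describe genes chosen with these data in view. H19 was called lower in HU Ctrl against AMB Ctrl under every alternative, and in HU mKO against AMB mKO under every alternative but the model of the compared groups only, where 0 members were called (H19 -1.94); the cause was not tested. With each library left out in turn the count of members called stayed at 1 in both unloading comparisons and at 0 in the others, and the log2 change of H19 ran between -2.23 and -1.79 in knockout and between -2.24 and -2.04 in control mice. In HU Ctrl against AMB Ctrl the count was 2 with the compared groups only and without the 3 adipocyte-rich libraries. It was also 2 without them and with the title letter added, since Mest was called each time (-0.92, -0.99 and -0.82). In females against males the count was 1, Peg3, under DESeq2 (adjusted p = 0.0362) and with the title letter added. Except for DESeq2, the numbers of genes called in these fits are not given here, so changes in the count are not read as results. The number of related pairs was 14, 10 without AMB mKO replicate 2 and 5 without the 3 adipocyte-rich libraries, where Mest and Plagl1 turned sign (r = -0.0145, against 0.440 with all libraries). No paired analysis was possible because the animal numbers in the titles are used once each and the replicate numbers only follow the order of deposit. Igf2, Mirg, Mest and Plagl1 lie at a few CPM, and depth limits Dlk1.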
